A study of Mus musculus with 17 samples.

Results

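Matrix metalloproteinases (MMPs) and tissue inhibitors of metalloproteinases (TIMPs) were examined in primary lung fibroblast cultures of the Ephb4 CKO mouse. The genes were the rows of the deposited count table that carry the symbols Mmp2, Mmp3, Mmp8, Mmp12, Mmp13, Mmp14, Mmp19, Timp1, Timp2 and Timp3, which is 10 of 55421 genes, and all 10 passed the filter on low counts that 10481 genes passed. The 17 libraries came from 1 mouse each: 4 Ephb4 control and 5 Ephb4 CKO mice after PBS (the control PBS and CKO PBS mice), and 4 of each genotype after bleomycin (the control bleomycin and CKO bleomycin mice). All mice were Ephb4f/f; Col1a2-CreERT2, so the controls carry the same floxed alleles and the same inducible Cre. Ephb4 CKO mice received 4-hydroxytamoxifen at 4 weeks of age, 1 mg on each of 5 days, and Ephb4 control mice received corn oil, so that the agent and the deletion cannot be told apart. At 6 weeks of age the mice were given 1.2 U/kg of bleomycin, the standard agent for experimental lung fibrosis, or PBS, and the lung cells were harvested 14 days later, grown in culture and passaged once, with no treatment in the dish. Cre was driven by the Col1a2 promoter, so the deletion is directed at cells that express this collagen gene, and not at the other cells of a culture.

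MMPs are zinc-dependent enzymes that cut extracellular matrix proteins and many other secreted or surface proteins, and most are made as inactive proenzymes. TIMPs bind the active site of MMPs and block it, and their balance with the enzymes is thought to govern matrix turnover in the fibrotic lung. Fibroblasts are known for Mmp2, Mmp14, Mmp3 and the TIMPs, whereas Mmp12 is best known as the elastase of macrophages.

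The cultures, labelled as fibroblasts, differed widely in fibroblast and macrophage RNA. Col1a2, a chain of type I collagen, ranged from 0.995 to 3732 CPM (counts scaled to TMM-adjusted library size), and Lyz2, the lysozyme gene of macrophages, from 875 to 37377 CPM. Col1a2 was near absent, at 0.995 to 3.34 CPM, in 2 control PBS, 3 CKO PBS and 1 CKO bleomycin mice. The summed level of the 14 fibroblast markers had a median of 179 CPM in control PBS mice (range 13.7 to 7406), 10929 CPM in control bleomycin mice (6609 to 12525), 327 CPM in CKO PBS mice (36.3 to 1985) and 303 CPM in CKO bleomycin mice (16.4 to 1942). The summed level of the 19 macrophage markers had medians of 35109, 18162, 37489 and 35268 CPM in the same order, with ranges of 11168 to 47785, 1495 to 21553, 24869 to 43848 and 24719 to 45434. Of the 10 neutrophil markers 3 passed the filter, and Ly6g, Camp and Ngp were under 1 CPM in every library. The summed level of the 10 ranged from 11.9 to 80.3 CPM in control PBS mice and from 15.6 to 22.3 CPM in control bleomycin mice. It ranged from 14.8 to 108 CPM in CKO PBS mice and from 10.0 to 54.4 CPM in CKO bleomycin mice. In such bulk libraries fewer cells of a type and less RNA per cell cannot be told apart. The targeted gene, Ephb4, measured 24.5, 4.06, 33.9 and 2.35 CPM in control PBS mice, 66.0, 13.3, 35.8 and 41.0 CPM in control bleomycin mice, 7.81, 23.9, 9.09, 4.06 and 4.10 CPM in CKO PBS mice and 14.2, 9.66, 10.3 and 5.00 CPM in CKO bleomycin mice. Its log2 fold change in Ephb4 CKO versus control mice was -2.00 ± 0.79 (SE) after bleomycin (edgeR adjusted p = 0.220) and -0.73 ± 0.72 after PBS (edgeR adjusted p = 1.00), and the groups overlapped both times. In 3 libraries the Xist and Y-linked counts went against the recorded sex: control bleomycin mouse 2 and CKO bleomycin mice 1 and 2. The animal numbers fell into 2 series, and all 4 control bleomycin mice belonged to the series that also held 1 of 4 control PBS mice, 2 of 5 CKO PBS mice and 2 of 4 CKO bleomycin mice.

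Mmp13, Mmp12, Mmp3 and Mmp8 lie in 1 cluster on chromosome 9 (GRCm38, plus strand), at positions 7272514 to 7283331, 7344381 to 7369499, 7445822 to 7455975 and 7558456 to 7568485, with Mmp10 between Mmp3 and Mmp8. RefSeq promoter windows (GRCm38.p6) were given for 8 of the 10 genes, as 9 windows. AP-1 is a dimer of Fos and Jun proteins, and its site is the textbook element of collagenase and stromelysin promoters. The letters TGAGTCA or TGACTCA, which are each other's reverse complement, were found in 3 of the 9 windows, 1 each for Mmp13, Mmp3 and Mmp12, against 4.46% of all 32851 promoter windows. The windows of the 4 cluster genes are printed because these genes are neighbours and did not all vary together. Each runs from 250 bases to 1 base before the RefSeq start, has no annotated exon and shows the AP-1 letters in capitals. Mmp12 has 2 windows, and the one printed is that of the downstream start, which lies inside the gene. The window at the start of the gene held no AP-1 letters.
Mmp13, chr9:7272264-7272513, plus strand: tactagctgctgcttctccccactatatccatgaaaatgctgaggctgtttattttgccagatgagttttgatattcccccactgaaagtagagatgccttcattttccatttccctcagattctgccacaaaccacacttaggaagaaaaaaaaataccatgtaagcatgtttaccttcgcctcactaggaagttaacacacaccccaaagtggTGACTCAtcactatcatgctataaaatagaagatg
Mmp12, chr9:7347124-7347373, plus strand: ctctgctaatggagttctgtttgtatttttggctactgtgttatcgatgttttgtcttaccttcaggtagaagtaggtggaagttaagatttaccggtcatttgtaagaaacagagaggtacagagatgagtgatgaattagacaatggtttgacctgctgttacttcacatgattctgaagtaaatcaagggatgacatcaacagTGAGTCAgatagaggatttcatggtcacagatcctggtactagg
Mmp3, chr9:7445572-7445821, plus strand: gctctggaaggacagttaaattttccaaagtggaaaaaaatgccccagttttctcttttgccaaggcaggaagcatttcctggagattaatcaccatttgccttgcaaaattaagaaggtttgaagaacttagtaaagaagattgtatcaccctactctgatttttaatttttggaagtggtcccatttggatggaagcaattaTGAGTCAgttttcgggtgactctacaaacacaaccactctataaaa
Mmp8, chr9:7558179-7558428, plus strand: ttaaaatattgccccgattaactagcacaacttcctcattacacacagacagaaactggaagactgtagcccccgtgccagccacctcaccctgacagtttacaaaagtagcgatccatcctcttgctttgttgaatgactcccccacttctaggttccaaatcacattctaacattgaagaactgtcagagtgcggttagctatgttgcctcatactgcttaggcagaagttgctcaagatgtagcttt
The AP-1 letters began 35 bases before the start in Mmp13, 44 bases before it in Mmp12 and 46 bases before it in Mmp3, and the Mmp8 window did not hold them. These matches describe the sequence only.

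Levels were first compared between genes per length, as CPM per kb of exon. Mmp12 had the highest median over the 17 libraries, 243 CPM per kb, followed by Timp1 (76.0), Timp2 (44.5), Mmp19 (42.0), Mmp8 (26.7), Mmp14 (20.9), Mmp3 (12.6), Mmp2 (7.49), Mmp13 (7.48) and Timp3 (5.09). Mmp12 was the most abundant MMP in 16 of the 17 libraries, and Mmp3 was in control bleomycin mouse 1. Every gene's level per kb overlapped that of its neighbour in this order when all libraries were compared, and the order differed between groups. In control bleomycin mice Timp1 had the highest median (273 CPM per kb), Timp3 came next (169) and Mmp12 stood at 68.9. In CKO bleomycin mice Mmp12 had a median of 282 CPM per kb, Timp1 59.7 and Timp3 4.62.

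Mmp12, the macrophage elastase (metalloelastase), cuts elastin. It measured 516, 1419, 1739 and 2897 CPM in control PBS mice, 362, 635, 676 and 348 CPM in control bleomycin mice, 45078, 761, 1809, 6799.8 and 6432 CPM in CKO PBS mice, and 2227, 9155, 1762 and 1849.7 CPM in CKO bleomycin mice. All 4 CKO bleomycin mice were above all 4 control bleomycin mice. The macrophage marker sums of these groups were split the same way, at 24719 to 45434 CPM against 1495 to 21553 CPM.

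Mmp8 and Mmp13 are collagenases, which cleave fibrillar collagen. Mmp8, also called neutrophil collagenase, measured 14.6, 64.7, 134 and 44.5 CPM in control PBS mice, 40.2, 91.2, 25.0 and 20.0 CPM in control bleomycin mice, 9615, 9.83, 127, 77.3 and 264 CPM in CKO PBS mice and 28.6, 37.0, 134 and 94.5 CPM in CKO bleomycin mice. Mmp13 measured 9.34, 19.6, 16.2 and 20.0 CPM, then 55.2, 7.95, 5.78 and 6.11 CPM, then 4005, 4.52, 42.4, 74.0 and 528 CPM, and then 34.1, 32.9, 27.3 and 8.45 CPM in the same order of groups. In both genes the groups overlapped, and 1 library, CKO PBS mouse 1, exceeded every other.

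CKO PBS mouse 1 stood apart for the chromosome 9 cluster. Its Mmp8 level was 36.5 times that of the next library, its Mmp13 level 7.58 times and its Mmp12 level 4.92 times, and Mmp10, the stromelysin gene beside Mmp8, was also highest there at 499 CPM, against 101 CPM in the next. Mmp13, Mmp12, Mmp3 and Mmp8 together took 4.31% of all counts in this library and from 0.0428% to 0.969% in the other 16. Mmp3, which lies within the same cluster, was not high there, at 25.1 CPM against a median of 22.6 CPM over all libraries. Outside the cluster, this library also held the highest levels of Mmp19 (1.94 times the next library) and Mmp14 (1.09 times). The library's Lyz2 level, 8456 CPM, was within the range of the other libraries, and its recorded sex and sex genes did not conflict. The mean log2 CPM of the 3 neutrophil markers that passed the filter was highest in this library, at 3.35. It was 3.12 in the next, CKO bleomycin mouse 3, where Mmp8 was at 134 CPM. A link between these markers and Mmp8 was not tested.

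**Figure D1:**
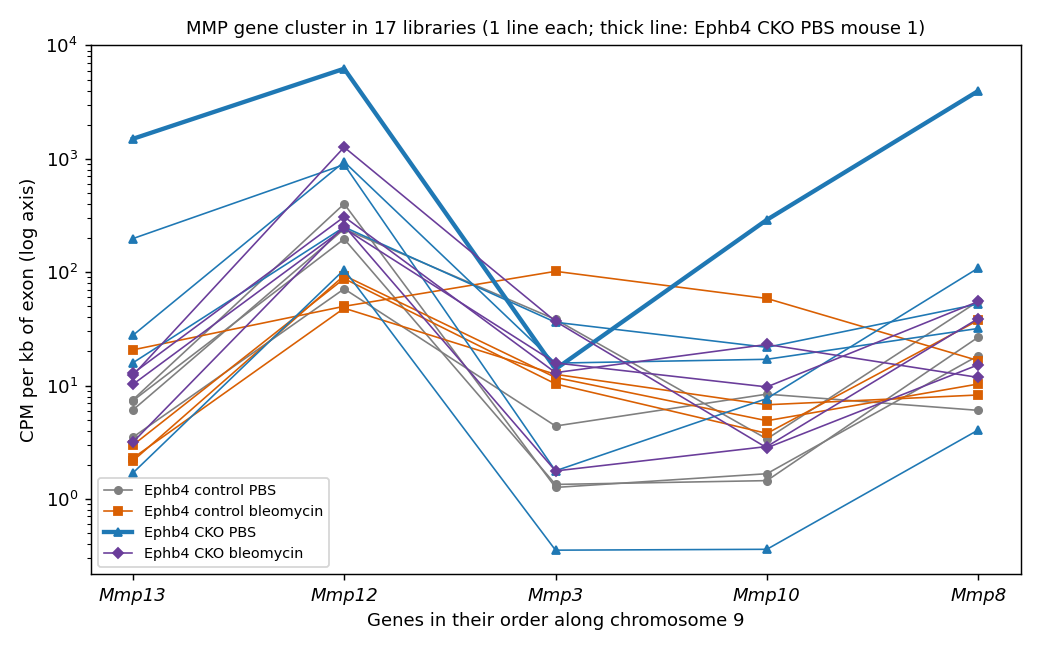
CPM per kb of exon (log axis) of the 5 filtered genes of the chromosome 9 MMP cluster in their order along the chromosome, 1 line for each of 17 libraries, coloured by group. The thick line, CKO PBS mouse 1, lies above all others at Mmp13 (1498), Mmp12 (6229), Mmp10 (289.6) and Mmp8 (3965) and among them at Mmp3 (14.0).

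Mmp3, stromelysin 1, digests proteoglycans and other matrix proteins and activates other proenzymes. It ranged from 0.636 CPM in CKO PBS mouse 2 to 183 CPM in control bleomycin mouse 1, and the other 3 control bleomycin mice measured 18.6, 21.2 and 22.6 CPM. Mmp2, gelatinase A, which digests denatured collagen and collagen IV, measured 19.3, 25.2, 60.6 and 6.25 CPM in control PBS mice, 255, 179.5, 40.5 and 59.4 CPM in control bleomycin mice, 59.4, 20.4, 25.2, 21.4 and 15.0 CPM in CKO PBS mice and 18.8, 79.4, 37.8 and 10.0 CPM in CKO bleomycin mice. The 2 highest values were both from control bleomycin mice, and its groups overlapped.

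Mmp14, the membrane-type enzyme MT1-MMP that activates pro-Mmp2 at the cell surface, varied least of the 10 genes. It measured 113, 58.3, 117 and 125 CPM in control PBS mice, 272, 169, 143 and 147 CPM in control bleomycin mice, 295, 141, 58.1, 91.7 and 199.7 CPM in CKO PBS mice and 112, 97.0, 96.5 and 144 CPM in CKO bleomycin mice. Its control bleomycin mice all lay above its control PBS mice, its whole range was 5.08-fold, and the SD of its log2 CPM over the 17 libraries (0.64) was above that of 65.7% of the genes kept. Mmp19 ranged 12.5-fold, from 43.8 CPM in control bleomycin mouse 1, the library with the lowest Lyz2, to 549 CPM in CKO PBS mouse 1. By the same measure Timp1 was the most variable of the 10, with an SD of 2.82 that exceeded that of 98.0% of the genes kept.

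Timp3, the inhibitor that is held in the extracellular matrix and also blocks ADAM proteases, was split between groups. It measured 58.1, 20.9, 334 and 5.74 CPM in control PBS mice, 692, 479, 2056 and 2833 CPM in control bleomycin mice, 41.4, 58.5, 36.8, 16.9 and 18.5 CPM in CKO PBS mice and 36.1, 132, 39.1 and 14.7 CPM in CKO bleomycin mice. All 4 control bleomycin mice were above the other 13 mice, and among those the highest was control PBS mouse 3, the PBS library with the most Col1a2 (1457 CPM). Col1a2 was split the same way, at 1773 to 3732 CPM in control bleomycin mice and at most 1457 CPM elsewhere. The share of all genes with this split was not counted.

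Timp1, a soluble inhibitor that tissues raise on injury, measured 32.8, 2.33, 512 and 1.66 CPM in control PBS mice, 1403, 212, 231 and 254 CPM in control bleomycin mice, 57.0, 19.6, 76.5, 6.93 and 76.5 CPM in CKO PBS mice and 67.5, 129.5, 38.6 and 1.95 CPM in CKO bleomycin mice. The control bleomycin mice lay above both Ephb4 CKO groups and overlapped the control PBS mice through mouse 3. Timp2, which both inhibits Mmp2 and takes part in its activation by Mmp14, varied less. It measured 141, 43.8, 96.4 and 49.1 CPM in control PBS mice, 174, 302, 217 and 210.0 CPM in control bleomycin mice, 185, 174, 65.2, 48.1 and 227 CPM in CKO PBS mice and 284, 384, 69.3 and 54.5 CPM in CKO bleomycin mice. The control bleomycin mice lay above the control PBS mice and within the range that the Ephb4 CKO mice spanned.

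**Figure D2:**
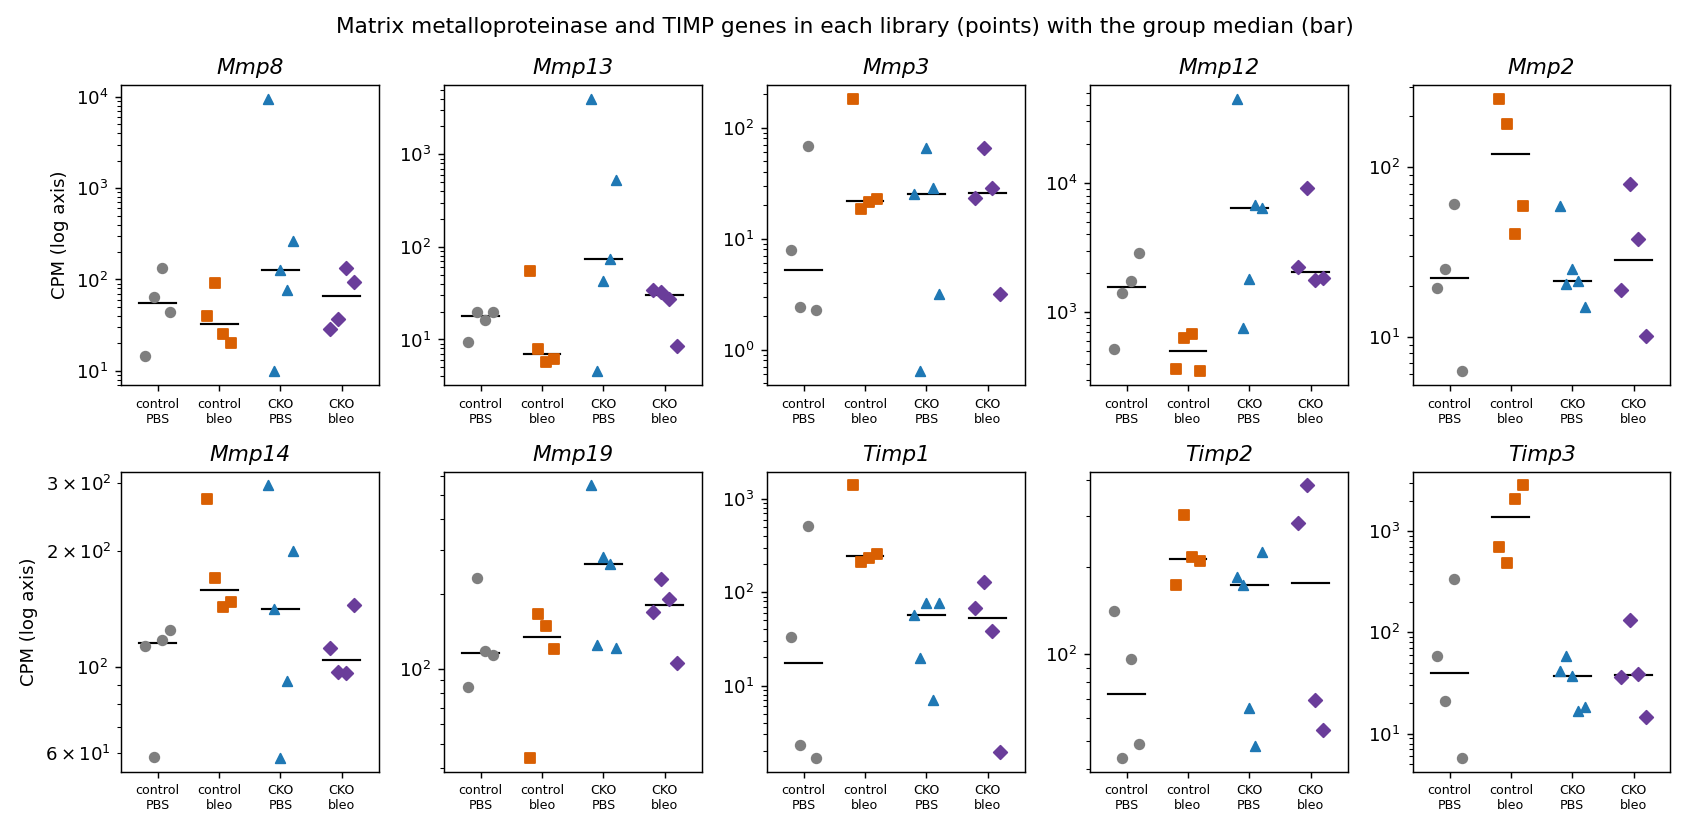
CPM (log axis) of each of the 10 genes in each library, by group, with the group median as a bar. The 4 control bleomycin mice sit at 479 to 2833 CPM for Timp3, above every other library, and at 348 to 676 CPM for Mmp12, below all 4 CKO bleomycin mice.

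The genes were then separated by their correlation with Col1a2 and with Lyz2 across the 17 libraries on log2 CPM. These are descriptions over points that share library content, and Col1a2 and Lyz2 were themselves inversely related (Pearson r = -0.52, Spearman rho = -0.58). A gene was called fibroblast-type when its Pearson r with Col1a2 was at least 0.5 and above that with Lyz2, and macrophage-type in the reverse case. Among all genes kept, 20.7% reached an r of 0.5 with Col1a2 and 21.1% with Lyz2. Fibroblast-type genes were Timp1 (r = 0.89, rho = 0.91), Timp3 (r = 0.86, rho = 0.79), Mmp2 (r = 0.74, rho = 0.77), Mmp3 (r = 0.70, rho = 0.58) and Timp2 (r = 0.57, rho = 0.59). Their r with Lyz2 ranged from -0.73 for Mmp2 to -0.42 for Timp2. With each group centred on its own mean, r with Col1a2 was 0.87 for Timp1, 0.69 for Mmp3, 0.68 for Timp3, 0.52 for Mmp2 and 0.41 for Timp2. Within the 8 and the 9 libraries of the 2 animal-number series it was 0.96 and 0.84 for Timp1, 0.88 and 0.83 for Timp3, 0.77 and 0.63 for Mmp2, 0.78 and 0.62 for Mmp3 and 0.50 and 0.41 for Timp2. Without the 2 libraries farthest from the median Col1a2 it was 0.89, 0.83, 0.69, 0.76 and 0.48 in the same order.

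None of the 10 genes was macrophage-type by this rule. Mmp19 (r = 0.45 with Lyz2, -0.28 with Col1a2) and Mmp12 (0.23 and -0.48) came nearest, and without the 2 libraries farthest from the median Lyz2 their r with Lyz2 was -0.22 and -0.14. The value for Mmp19 rested on single libraries: it was 0.70 without CKO PBS mouse 1 and -0.09 without control bleomycin mouse 1. With the mean log2 level of the whole macrophage marker list in place of Lyz2, r was 0.61 for Mmp19 and 0.57 for Mmp12, and both then met the rule. Mmp8 (r = -0.04 with Lyz2, -0.22 with Col1a2) and Mmp13 (-0.15 and -0.26) followed neither reference, and their r with the macrophage list was 0.30 and 0.23. Mmp14 had r = 0.13 with Col1a2 and -0.64 with Lyz2 and was not assigned.

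**Figure D3:**
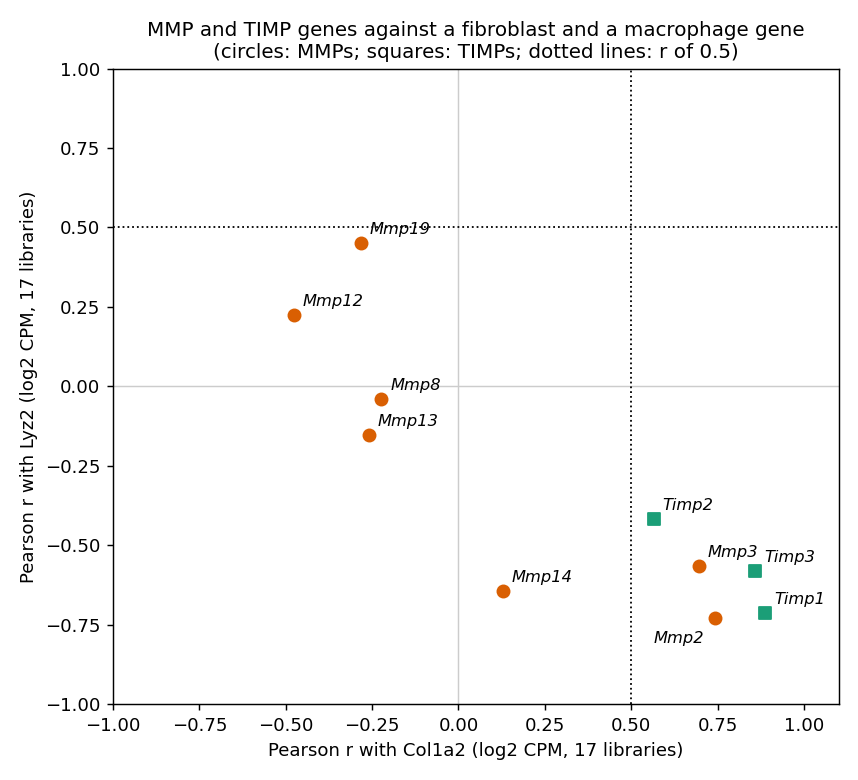
Pearson r of log2 CPM over 17 libraries with Col1a2 (x axis) and Lyz2 (y axis), with circles for the 7 MMPs, squares for the 3 TIMPs and dotted lines at an r of 0.5. Mmp2, Mmp3 and the 3 TIMPs lie right of the Col1a2 line, and no gene lies above the Lyz2 line.

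Within the set, Mmp8, Mmp12 and Mmp13 varied together (r = 0.84 for Mmp8 and Mmp13, 0.80 for Mmp12 and Mmp13, 0.74 for Mmp8 and Mmp12, n = 17). Without CKO PBS mouse 1 these values were 0.62, 0.63 and 0.50 (n = 16). Mmp3, their neighbour, had r = 0.19 with Mmp8, 0.02 with Mmp12 and 0.20 with Mmp13, and r = 0.71 with Timp1 and 0.69 with Mmp2. The printed windows of Mmp3, Mmp12 and Mmp13 hold the AP-1 letters, and that of Mmp8 does not. Timp1 and Timp3 had r = 0.80, and Mmp14 and Mmp2 had r = 0.36. Outside the set, the genes with the highest r were Lat (0.94), Stap1 (0.94) and Dcstamp (0.91) for Mmp12, Dcstamp (0.91), Ccl4 (0.89) and Tmem67 (0.88) for Mmp13, and Srgn (0.95), C1ra (0.93) and C1rb (0.93) for Mmp8. Without CKO PBS mouse 1 the same r were 0.91, 0.92 and 0.85 for Mmp12. They were 0.83, 0.79 and 0.75 for Mmp13, and 0.85, 0.86 and 0.86 for Mmp8. For the fibroblast-type genes they were Csrp2, Lgalsl and Rab23 for Timp3 (each 0.96), Unc5b (0.97), Vegfc (0.96) and Spry2 (0.96) for Timp1, Fez2 (0.94), Mras (0.91) and Gas6 (0.91) for Timp2, Kansl2 (0.93), Arntl (0.92) and Klhl22 (0.92) for Mmp2 and Fosl1 (0.89), S1pr3 (0.88) and Stc1 (0.87) for Mmp3. Those of Mmp14 were Polg (0.95), Ykt6 (0.87) and Fam222b (0.86), and those of Mmp19 were Tbc1d9 (0.86), Wfdc17 (0.85) and Pcnx (0.85). Without CKO PBS mouse 1 these r were 0.94, 0.83 and 0.84 for Mmp14 and 0.79, 0.77 and 0.78 for Mmp19.

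Bleomycin was compared with PBS in Ephb4 control mice, which asks what difference remained in the cultured cells after lung injury. Timp3 was 14.5-fold higher after bleomycin (log2 fold change 3.85 ± 1.09 SE), Mmp2 was 4.79-fold higher (2.26 ± 0.78) and Timp2 was 2.74-fold higher (1.45 ± 0.63). Mmp12 was 3.25-fold lower (-1.70 ± 0.99). Timp3, Timp2 and Mmp14 (0.82 ± 0.41) were higher in all 4 mice given bleomycin than in all 4 given PBS, and 8.91% of all genes kept likewise did not overlap between these groups. The quasi-likelihood test of edgeR called none of the 10 genes and 0% of all genes at a Benjamini-Hochberg adjusted p of 0.05, and the adjusted p of Timp3 was 0.268. At an unadjusted p of 0.05 it held 3 of the 10, Timp3, Mmp2 and Timp2, against 14.3% of all genes. DESeq2 called 1 of the 10, Timp3 (adjusted p = 0.00723), against 1.58% of all genes. The median log2 fold change was 1.14 over the 10 genes and -0.06 over all genes, with 7 of the 10 higher and 3 lower. With the fibroblast marker score as a covariate, the log2 fold change of Timp3 was 2.49 (edgeR unadjusted p = 0.0131, adjusted p = 0.999). Those of Timp1 and Mmp3 were then -0.55 and -0.27 in place of 1.94 and 1.59. Without control bleomycin mouse 1 the value of Mmp3 was 0.05 and that of Timp1 0.78.

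Ephb4 CKO mice were compared with Ephb4 control mice after bleomycin, which asks how the cultured cells differed by genotype and its inducing agent after lung injury. Timp3 was 27.3-fold lower in Ephb4 CKO mice (log2 fold change -4.77 ± 1.14 SE), Timp1 8.84-fold lower (-3.14 ± 1.55) and Mmp2 3.66-fold lower (-1.87 ± 0.77), whereas Mmp12 was 7.42-fold higher (2.89 ± 1.03). Timp3, Timp1 and Mmp12 did not overlap between the 4 and the 4 mice, as was the case for 23.1% of all genes kept. edgeR's test called none of the 10 and 0% of all genes, with adjusted p = 0.187 for Timp3, 0.211 for Mmp12, 0.223 for Mmp2 and 0.257 for Timp1. At an unadjusted p of 0.05 it held Timp3, Mmp12 and Mmp2, 3 of 10 against 20.2% of all genes. DESeq2 called Timp3 (adjusted p = 0.000523) and Mmp12 (adjusted p = 0.0447), 2 of 10 against 3.81% of all genes, and gave no adjusted p for Timp1 and Mmp8. The median log2 fold change was -0.45 over the 10 genes and 0.01 over all genes, with 4 higher and 6 lower. Timp2 (-0.19 ± 0.62), Mmp13 (0.45 ± 1.34), Mmp8 (0.73 ± 1.43) and Mmp19 (0.54 ± 0.50) differed by no more than about their error, and Mmp3 was at -1.02 ± 1.33 and Mmp14 at -0.70 ± 0.41.

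The fibroblast marker sums of these groups, given above, did not overlap either, nor did their macrophage marker sums. Timp3 was examined with each marker score in the fit. With the fibroblast marker score as a covariate its log2 fold change was -2.95 (edgeR unadjusted p = 0.00634, adjusted p = 0.999). With the macrophage marker score it was -4.06 (edgeR unadjusted p = 0.00373, adjusted p = 0.9996). With the animal-number series as a covariate it was -4.51, and without the 3 libraries whose sex genes go against the labels it was -6.15. The DESeq2 call of Timp3 held without control bleomycin mouse 1 (adjusted p = 0.00136), without CKO PBS mouse 1 (adjusted p = 0.000862) and without those 3 libraries (adjusted p = 0.000129). The DESeq2 call of Mmp12 held without CKO PBS mouse 1 (log2 fold change 2.90, adjusted p = 0.00588) and was lost without control bleomycin mouse 1 (2.76, adjusted p = 0.188) and without the 3 libraries (log2 fold change 1.95, adjusted p = 0.310). The value of Mmp12 was 3.08 with the fibroblast score (edgeR unadjusted p = 0.0190, adjusted p = 0.999). It was 2.48 with the macrophage score (edgeR unadjusted p = 0.0698, adjusted p = 0.9996). Timp1 took a value of 0.67 with the fibroblast score, the opposite direction.

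After PBS, Ephb4 CKO and Ephb4 control mice were compared to see whether the genotypes differed without injury. Mmp13 was 57.1-fold higher in Ephb4 CKO mice (log2 fold change 5.84 ± 1.63 SE), Mmp8 31.3-fold (4.97 ± 1.66) and Mmp12 7.41-fold (2.89 ± 1.01). The groups overlapped for all 10 genes, against 0.248% of all genes that did not overlap. edgeR's test called none of the 10 and 0% of all genes (adjusted p = 1.00 for each), and at an unadjusted p of 0.05 it held these 3 of the 10, against 1.99% of all genes. DESeq2 called 1 gene in all, which was Mmp13 (adjusted p = 0.00258), or 0.00954% of the genes kept. With all libraries it gave no p for Mmp8 in this or any other comparison, so that Mmp8 was not tested by it. Without CKO PBS mouse 1 the log2 fold changes were 3.34 for Mmp13, 0.88 for Mmp8 and 1.27 for Mmp12, and DESeq2 no longer called Mmp13 (adjusted p = 1.00). The macrophage marker sums of these 2 groups overlapped, and so did their Lyz2 levels.

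Bleomycin was also compared with PBS in Ephb4 CKO mice, where the PBS group again held CKO PBS mouse 1. Mmp13 (log2 fold change -5.18 ± 1.58 SE) and Mmp8 (-4.78 ± 1.64) were lower after bleomycin, and without CKO PBS mouse 1 the values were -2.68 and -0.72. No gene of the set was separated between the groups, against 0.0859% of all genes. edgeR's test called none of the 10 and 0% of all genes (adjusted p = 1.00 for both), and at an unadjusted p of 0.05 it held Mmp8 and Mmp13, 2 of 10 against 0.964% of all genes. DESeq2 called Mmp13 alone (adjusted p = 0.04998), which is 0.00954% of the genes kept, and did not call it without CKO PBS mouse 1 (adjusted p = 1.00). Timp3 had a value of 0.69 ± 0.92 and Timp1 of 0.33 ± 1.35. These comparisons share groups, so that their values are not independent of each other.

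**Figure D4:**
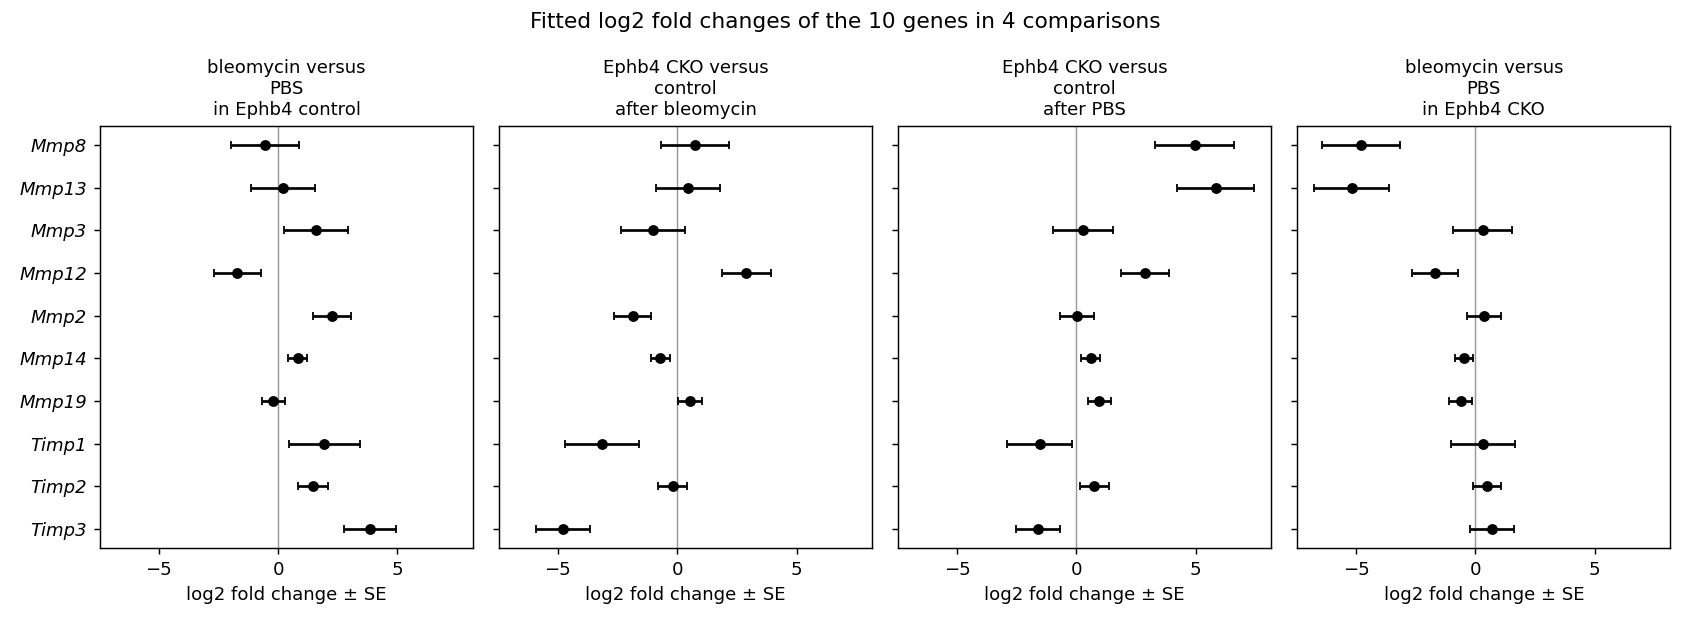
Log2 fold change with its standard error from the edgeR fit for the 10 genes in the 4 comparisons, with 4 or 5 mice a group. Timp3 lies at 3.85 in the first panel and at -4.77 in the second, and Mmp8 and Mmp13 lie at 4.97 and 5.84 in the third and at -4.78 and -5.18 in the fourth.

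The interaction, which is the bleomycin effect in Ephb4 CKO minus that in Ephb4 control mice, tests whether the response differed by genotype. It was -5.38 ± 1.99 (SE, log2) for Mmp13, -3.17 ± 1.38 for Timp3 and -1.31 ± 0.57 for Mmp14, which were the 3 of 10 at an unadjusted p of 0.05, against 3.46% of all genes. edgeR (adjusted p = 0.916 for each) and DESeq2 called none of the 10 and 0% of all genes. Without CKO PBS mouse 1 the value for Mmp13 was -2.92 (edgeR unadjusted p = 0.0756) and that of Timp3 -3.07 (edgeR unadjusted p = 0.0539). That of Mmp14 was then -0.98. Without the same library the value of Mmp8 (-4.23 ± 2.06 with all libraries) was -0.17, and that of Mmp12 (0.00 ± 1.32 with all libraries) was 1.61. For Timp3, then, a genotype difference in the response to bleomycin did not pass the test.

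The balance of enzymes and inhibitors was described by the ratio of the summed CPM per kb of the 7 MMPs to that of the 3 TIMPs, with no test. It was 1.67, 19.2, 0.641 and 31.7 in control PBS mice, 0.189, 0.712, 0.344 and 0.215 in control bleomycin mice, 102, 2.39, 4.21, 50.0 and 8.65 in CKO PBS mice and 2.72, 5.50, 6.15 and 19.8 in CKO bleomycin mice. TIMP transcripts outweighed MMP transcripts in all 4 control bleomycin mice and in 1 other library, control PBS mouse 3. Mmp12 made up 15.5% to 47.7% of the MMP sum in control bleomycin mice, 53.2% to 83.0% in control PBS mice, 52.2% to 84.5% in CKO PBS mice and 59.9% to 88.2% in CKO bleomycin mice, so that the control bleomycin mice lay below the other groups. The ratio speaks of transcripts and not of active enzyme, and it depends on the exon length taken for each gene.

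**Figure D5:**
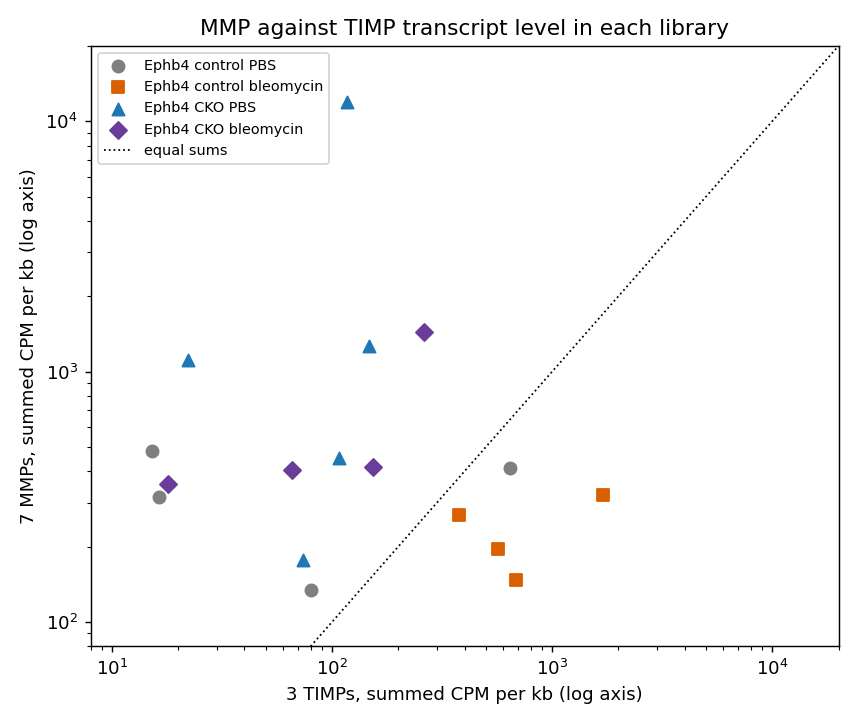
Summed CPM per kb of the 3 TIMPs (x axis) and the 7 MMPs (y axis) in each of 17 libraries, both on log axes, with a dotted line where the sums are equal. The 4 control bleomycin mice lie right of the line, at ratios of 0.189 to 0.712, and all 9 Ephb4 CKO mice lie left of it, at ratios of 2.39 to 102.

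Related genes were then described list by list. Of the 17 other MMP family genes, Timp4 included, 5 passed the filter, and in Ephb4 CKO versus control mice after bleomycin all 5 were lower with none called by either tool, the smallest p being those of Mmp11 (log2 fold change -1.77 ± 1.06 SE) and Mmp23 (-1.34 ± 1.19). After bleomycin in Ephb4 control mice 4 were higher and 1 lower, led by Mmp23 (2.96 ± 1.26) and Mmp10 (2.31 ± 1.45) among the higher, while Mmp15 was at -0.40. Mmp10 measured 101 CPM in control bleomycin mouse 1 and 6.51, 8.43 and 11.7 CPM in the other 3, against 14.5, 2.50, 5.82 and 2.87 CPM in control PBS mice, so that the high value came from 1 mouse and the groups overlapped. Of 19 ADAMTS genes, which encode secreted proteases that cut proteoglycans and procollagens, 9 passed the filter. All 9 were higher in Ephb4 control mice after bleomycin and all 9 lower in Ephb4 CKO than in control mice after bleomycin (median -2.07), comparisons that share the same 4 mice. The smallest p were those of Adamts2 (1.99 ± 0.93) and Adamts5 (3.63 ± 1.71) in the former and Adamts6 (-2.24 ± 0.86) and Adamts10 (-0.83 ± 0.32) in the latter. edgeR called none, and DESeq2 called only Adamts12 in the latter (log2 fold change -4.37 ± 1.75 by edgeR, DESeq2 adjusted p = 0.0446), 1 of 9 against 3.81% of all genes and a gene chosen after its value was seen.

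ADAM proteases, which shed proteins from the cell surface, were split. Of 11, 8 passed the filter, and 4 were higher and 4 lower in Ephb4 CKO than in control mice after bleomycin. Adam17, the sheddase that Timp3 inhibits, was at 1.19 ± 0.43 on the log2 scale and Adam8 was 2.15-fold higher, and Adam12 (-2.88 ± 1.28) and Adam19 (-2.68 ± 1.19) were lower, with none called by either tool. Adam17, Adam12 and Adam19, 3 of the 8, did not overlap between the groups, against 23.1% of all genes. In Ephb4 control mice after bleomycin 6 were higher and 2 lower, and Adam15 was at 1.07 ± 0.36, Adam23 at 3.75 ± 1.58 and Adam10 at -0.29 ± 0.26, with Adam17 2.002-fold lower.

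Genes that activate or restrain MMPs gave no call by either tool in any comparison. Of 13 such genes 9 passed the filter, and in Ephb4 CKO versus control mice after bleomycin 3 were higher and 6 lower. In edgeR 1 of the 9, among the lower, was at an unadjusted p under 0.05, against 20.2% of all genes. The lower values reached -4.30 ± 2.33 (Pcsk5, another convertase). Plat, tissue plasminogen activator (-2.64 ± 1.33), was the 1 of the 9 that did not overlap between the groups, against 23.1% of all genes. Both genes were chosen after their values were seen. Furin, a convertase that cuts the propeptide of membrane-type MMPs, was at -0.68 ± 0.33, while Plaur, the urokinase receptor, was at 0.80 ± 0.47 and Lrp1, a receptor that clears MMPs and TIMPs, at 0.37 ± 0.24. In Ephb4 control mice after bleomycin 6 were higher and 3 lower, with Thbs2 at 4.81 ± 1.96, Furin at 0.55 ± 0.33, Plaur at -0.77 ± 0.47 and Plau at -0.59 ± 0.50. Of 7 AP-1 subunit genes 6 passed, with 3 higher and 3 lower in both comparisons and none called. Fos was at 0.96 ± 0.54, Jun at 0.20 ± 0.35, Fosl1 at -0.91 ± 0.87 and Fosl2 at -0.31 ± 0.40 in Ephb4 CKO versus control mice after bleomycin, and Fosl1 was at 0.97 ± 0.87, Jun at 0.25 ± 0.35, Fos at -1.04 ± 0.54 and Junb at -0.17 ± 0.35 in Ephb4 control mice after bleomycin.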

How the data were processed

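Total RNA of 17 lung cell cultures was sequenced as stranded paired-end reads after removal of ribosomal RNA. The authors trimmed the reads with Cutadapt, aligned them to GRCm38 with HISAT2, estimated transcripts with StringTie and deposited whole-number counts per gene, which derive from transcript coverage and are not normalized. Total counts ranged from 66540022 to 120554468 per library (median 93075927), and coverage shared by overlapping transcripts could be divided by StringTie.

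Genes above 10 CPM in at least 2 libraries were kept (10481). All 17 libraries were fitted together in edgeR 4.0.16 (R 4.3.3, quasi-likelihood test, TMM, 1 mean per group) and p was adjusted over the genes kept at a threshold of 0.05. The study added a batch number, which the labels do not give per library, so no batch term was used. DESeq2 1.42.0 was an alternative. Log2 CPM had a prior count of 2. Each standard error is the absolute log2 fold change over the root of F. Exon lengths were the union of all exons of a gene in GENCODE M21, 7237 bp for Mmp12 and 888 bp for Timp1. Values per kb, their order and their ratios depend on that choice. Promoter sequences came from RefSeq. The fit was also run on simulated counts with known changes, and the share it recovered is not given here. Groups came from the labels, and the groups compared share no animal number. Each library is 1 culture of 1 mouse, so p-values cover the spread between mice and cultures together.

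The genes, the lists and the tests were chosen with earlier results of these data known. Named genes were the 10 members, Ephb4, Col1a2 and Lyz2, the 3 genes of highest r for each member and, in each related list, the 2 of smallest p in each direction in the comparisons of bleomycin in Ephb4 control mice and of genotype after bleomycin, except 1 gene that is not reported here. Alternatives were DESeq2, RLE factors, 2 other filters, fits of the compared groups alone, covariates (sex, animal-number series, marker scores), libraries left out, other correlation measures and, added after the data were seen, DESeq2 without single libraries.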

Additional observations from a re-analysis of the deposited data

Results flagged for a closer look

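The spread of log2 CPM was examined for the 10 genes in the 4 groups, 40 sets in all, by Dixon's ratio of the gap beside the highest or lowest mouse to the whole range. Chance flags about 1 in 20 such sets, and 6 of 40 exceeded the 95% critical value.

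Of the 6, 3 were from control bleomycin mouse 1, the culture with the least Lyz2 (875 CPM): Mmp3 at 183 CPM against 22.6 in the next mouse (ratio 0.915), Timp1 at 1403 against 254 CPM (ratio 0.905) and Mmp13 at 55.2 against 7.95 CPM (ratio 0.859). Mmp12 was high in CKO bleomycin mouse 2 at 9155 CPM against 2227 CPM (ratio 0.858), a library whose sex genes go against its label. Mmp13 was low in CKO bleomycin mouse 4 at 8.45 against 27.3 CPM (ratio 0.841). Mmp14 was low in control PBS mouse 2 at 58.3 against 113 CPM (ratio 0.875).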

How the results depend on the processing

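No edgeR alternative called any of the 10 genes in any comparison. With each library left out in turn, edgeR called 0 to 2 genes of all kept for the bleomycin effect in Ephb4 control mice, 0 to 1 for Ephb4 CKO versus control after bleomycin and 0 in the other comparisons. DESeq2 called 166, 399, 1 and 1 genes, of which 1, 2, 1 and 1 were MMP or TIMP genes, for bleomycin in Ephb4 control mice, genotype after bleomycin, genotype after PBS and bleomycin in Ephb4 CKO mice. Chosen after seeing the data, DESeq2 without CKO PBS mouse 1 called 241 and 461 genes (1 and 2 of the set) in the first 2 comparisons and none in the others. Without control bleomycin mouse 1 it called 64, 39, 1 and 1 genes (1 of the set in each) and 1 for the interaction. Without the 3 libraries whose sex genes go against the labels it called 166, 464, 1 and 4 genes (1, 1, 1 and 0 of the set) and 31 for the interaction. The count of fibroblast-type genes was 5 with each library left out and 4 (not Timp2) with centred values or without those 3 libraries. The count of macrophage-type genes was 2 with the marker lists as references and 0 to 1 with each library left out. The causes were not tested.

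None of the values whose direction turned had passed edgeR's test. For bleomycin in Ephb4 control mice, Mmp13 took -1.31 with the number series, -0.12 with the fibroblast score, -1.18 with the macrophage score and -1.29 in DESeq2 without control bleomycin mouse 1. Mmp3 took -0.27 and Timp1 -0.55 with the fibroblast score, and Mmp19 0.16 with the macrophage score and 0.095 in DESeq2 without that mouse. For genotype after bleomycin, Mmp3 took 1.22 and 1.74 with the fibroblast and macrophage scores and 0.55 in DESeq2 without that mouse, Timp1 0.67 with the fibroblast score, Timp2 0.63 with it and 0.14 with the number series, and Mmp13 -0.36 without the 3 libraries (-0.34 in DESeq2). For genotype after PBS, Mmp2 took -0.21 with the number series and -0.45 in DESeq2 without CKO PBS mouse 1, and Timp1 1.39 with the fibroblast and 0.061 with the macrophage score. For bleomycin in Ephb4 CKO mice, the fibroblast score gave -0.28 for Mmp2, -0.62 for Mmp3, -1.27 for Timp1, -0.0098 for Timp2 and -0.38 for Timp3, the macrophage score -0.078 for Timp1, the number series -0.013 for Timp2, and leaving out the 3 libraries -0.28, -0.65, -1.26, -1.22 and -0.40 for these 5 genes (-0.27, -0.64, -1.25, -1.20 and -0.38 in DESeq2). The interaction of Mmp12, 0.0018, took -0.0094 with DESeq2 and with RLE factors, -0.036 with no filter, -0.052 with a filter of 0.5 CPM in 4 libraries, -0.32 with sex, -0.25 with the macrophage score, -0.97 without the 3 libraries (-0.95 in DESeq2) and -0.14 in DESeq2 without control bleomycin mouse 1. In DESeq2 the interaction was 0.0092 for Mmp19 without CKO PBS mouse 1 and 0.30 for Mmp3 without control bleomycin mouse 1.

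With each library left out, values that turned ranged as follows. In Ephb4 control mice they were -1.27 to 0.50 for Mmp13, -0.39 to 0.20 for Mmp19 and -1.18 to 0.14 for Mmp8. For genotype after bleomycin they were -1.74 to 0.54 for Mmp3 and -0.73 to 0.12 for Timp2. For genotype after PBS they were -0.46 to 0.75 for Mmp2, -0.53 to 2.54 for Mmp3, -1.96 to 1.97 for Timp1 and -2.00 to 0.31 for Timp3. In Ephb4 CKO mice they were -0.35 to 0.84 for Mmp2, -0.42 to 1.09 for Mmp3, -0.39 to 0.73 for Timp1, -0.039 to 0.82 for Timp2 and -0.20 to 1.00 for Timp3. For the interaction they were -0.94 to 1.61 for Mmp12, -0.82 to 0.011 for Mmp19 and -3.55 to 0.30 for Mmp3. No paired analysis was possible because the replicate numbers follow accession order and the groups compared share no animal number. Control PBS and CKO bleomycin mice share 1 animal number, as do control bleomycin and CKO PBS mice, but these groups were not compared.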
